A study of Mus musculus with 6 samples.

Results

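This account concerns 40 genes whose products carry a cell through the end of G2 and through mitosis, followed across 3 subsets of mouse natural killer (NK) cells. The genes were given as a list of symbols, with no threshold on the measured values, and every probe set that carried one of their symbols was read. That list was chosen with earlier results of these data known, so counts set beside all genes are descriptions. Values were found for 39 of the 40, on 85 probe sets, out of 18193 genes and 45037 probe sets in all. The cyclin gene Ccnb1 was not analysed here, because no probe set carried its symbol alone.

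All cells came from spleens of RAG-/- mice, in which antigen receptor loci stay unrearranged and mature T and B cells are missing. That deletion was shared by all 3 groups, and the labels give no treatment, time or age. Spleen cells positive for NK1.1 were sorted by flow cytometry into 3 gates, CD27 alone (CD27+CD11b-), both markers (CD27+CD11b+) and CD11b alone (CD27-CD11b+), usually read as early, middle and late maturation. Each subset gave 2 RNA samples, measured on 6 Affymetrix mouse 430 2.0 arrays in all, and values are log2 expression. The study describes the 2 as independent replicates, but no label ties them to separate animals, so the p-values measure a spread between samples that may be technical.

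Entry into mitosis is driven by cyclin-dependent kinase 1 with A- and B-type cyclins and by Polo and Aurora kinases. Condensins and topoisomerase II then compact and disentangle the chromosomes, kinetochores attach them to spindle microtubules, and the spindle checkpoint holds back the anaphase promoting complex until all are attached. Motor proteins and bundling factors build the spindle midzone, where the chromosomal passenger complex and the contractile ring machinery complete cell division. Transcription of these genes is low in resting cells and peaks in G2 and mitosis, so in blood and spleen cells their summed level is widely used as a mark of proliferation. NK cells divide during their development in the bone marrow and spleen, and the last stage is known as largely resting.

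The promoters are shown first because many of these genes share a known arrangement. A CHR element (cell cycle genes homology region, TTTGAA or its variant TTTAAA) is bound by the DREAM and MMB complexes, which repress these genes in resting cells and activate them in G2 and mitosis, and a CCAAT box is bound by the factor NF-Y. The following stretches are RefSeq sequence on build GRCm38.p6, 5′ to 3′ on the strand of the gene, each 120 bases long, and capitals mark TTTGAA and CCAAT on either strand (TTCAAA and ATTGG where the match is on the other strand). Each stretch but that of Mki67 ends at the last base before the annotated start. They were chosen after the matches were seen: 6 genes with both motifs, 1 with CCAAT alone and 1 with neither.
Cdk1, chr10:69352913-69353032, minus strand: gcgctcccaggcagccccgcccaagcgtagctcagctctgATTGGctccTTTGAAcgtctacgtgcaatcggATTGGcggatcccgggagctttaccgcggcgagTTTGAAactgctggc
Cdc20, chr4:118437344-118437463, minus strand: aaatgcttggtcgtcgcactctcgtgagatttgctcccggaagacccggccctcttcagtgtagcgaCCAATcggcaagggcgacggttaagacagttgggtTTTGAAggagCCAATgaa
Top2a, chr11:99024190-99024309, minus strand: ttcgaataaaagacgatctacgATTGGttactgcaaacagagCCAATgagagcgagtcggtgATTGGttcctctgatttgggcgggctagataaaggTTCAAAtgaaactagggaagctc
Ube2c, chr2:164769809-164769928, plus strand: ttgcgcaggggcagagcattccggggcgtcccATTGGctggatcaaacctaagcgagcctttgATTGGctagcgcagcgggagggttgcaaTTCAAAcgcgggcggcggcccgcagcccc
Kif11, chr19:37376262-37376381, plus strand: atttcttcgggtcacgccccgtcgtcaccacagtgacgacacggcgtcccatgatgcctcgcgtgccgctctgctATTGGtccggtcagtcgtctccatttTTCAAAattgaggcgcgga
Mki67, chr7:135716460-135716579, minus strand, positions -200 to -81: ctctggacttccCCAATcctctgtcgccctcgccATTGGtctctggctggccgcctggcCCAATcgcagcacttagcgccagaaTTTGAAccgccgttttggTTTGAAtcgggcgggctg
Bub1, chr2:127831860-127831979, minus strand: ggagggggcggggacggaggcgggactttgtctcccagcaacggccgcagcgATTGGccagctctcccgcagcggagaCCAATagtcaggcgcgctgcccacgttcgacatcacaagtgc
Plk4, chr3:40799831-40799950, plus strand: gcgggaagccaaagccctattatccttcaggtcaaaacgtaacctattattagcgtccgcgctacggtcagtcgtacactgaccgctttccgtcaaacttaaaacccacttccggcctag
In Cdc20, Top2a, Ube2c and Kif11 a CCAAT box lies a short way upstream of TTTGAA close to the start, and the Cdk1 stretch holds 1 such pair, with another CCAAT box and TTTGAA farther upstream and closer together. The Mki67 stretch holds 3 CCAAT boxes followed by 2 TTTGAA matches, farther upstream. The Bub1 stretch holds CCAAT boxes without TTTGAA, and the Plk4 stretch holds neither.

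Promoter sequence from 250 bases before to 50 bases after the start was found for 35 of the 39 measured genes (all but Ccna2, Aurkb, Kif20a and Tpx2), with 37 promoters among them. TTTGAA, searched on both strands, occurred for 27 of these 35 genes (77.1%), against 20.2% of the 27025 genes with a promoter in the table and 17.9% of its 32851 promoters. The variant TTTAAA occurred for 9 genes (25.7%) against 14.9% of all. CCAAT, on both strands, occurred for 26 genes (74.3%) against 41.1%, and 17 had at least 2 matches. Both TTTGAA and CCAAT were present for 24 genes. A CCAAT match followed by a TTTGAA match 20 to 40 bases downstream, counted from first base to first base, was present for 14 of the 35 (40%) against 1.01% of all genes, a distance chosen after the matches were seen. CCAAT and TTTGAA matches were counted separately and can share an end base, while TTTGAA and TTTAAA matches cannot overlap.

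The same search gave different shares for mitotic and for replication genes. Of 37 further mitotic genes with a promoter, 22 (59.5%) held TTTGAA and 25 (67.6%) CCAAT. Of 33 DNA replication genes, 5 (15.2%) held TTTGAA, while 12 (36.4%) held the E2F-type letters TTTGGCGC or TTTCCCGC, which occurred for 2 of the 35 mitosis and G2/M genes (5.71%) and for 1.8% of all genes. Of the 37 TTTGAA matches counted in the promoters of the 35 genes, 18 (48.6%) lay between 60 bases upstream and 20 bases downstream of the start. In all promoters it was 22.4% of 6737 matches. The 2 promoters of Ect2 overlap, as do those of Prc1, so the same match was counted in each, from its own start. A match is a description of letters and was not tested as a binding site.

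**Figure D1:**
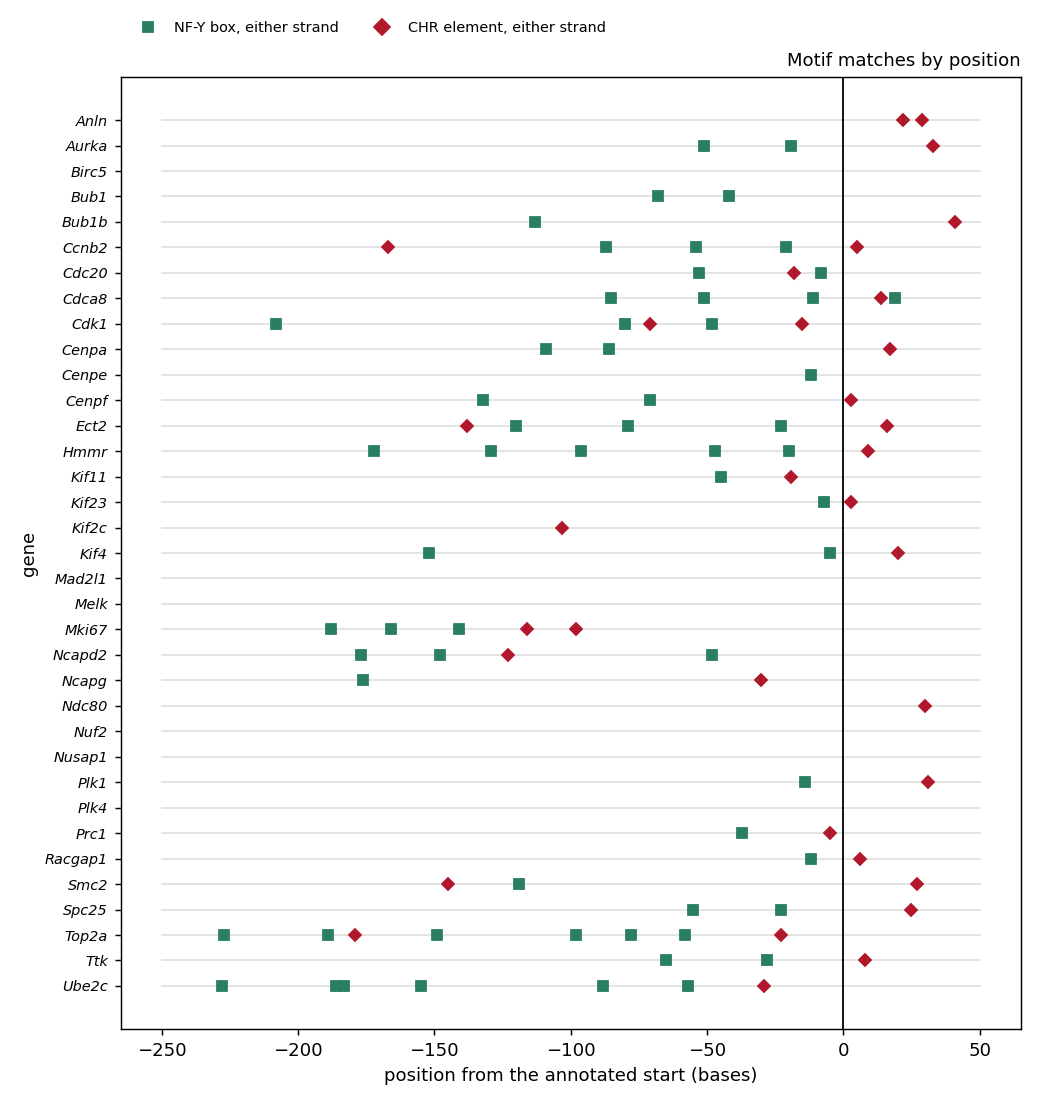
Positions of NF-Y boxes (CCAAT, squares) and CHR elements (TTTGAA, diamonds) on either strand in the promoters of the 35 genes, in bases from the annotated start. For Ect2 and Prc1, which have 2 promoters each, 1 is drawn; the rows of Birc5, Mad2l1, Melk, Nuf2, Nusap1 and Plk4 show neither motif.

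As a group the mitosis and G2/M genes were highest in CD27+CD11b- NK cells and lowest in CD27-CD11b+ cells. That order of the 3 subset means held for 37 of 39 genes, against 25.2% of all genes. The exceptions were Kif2c, with the opposite order on a probe set below background, and Racgap1, whose mean was highest in CD27+CD11b+ cells. The median log2 difference of CD27-CD11b+ from CD27+CD11b- cells was -1.42 over the 39 genes and -0.01 over all genes, and 27 of the 39 genes were at least 2-fold lower. After adjustment over all genes, Mki67, Anln and Plk4 fell in this outer comparison, 3 of 39, against 1.15% of all genes called lower. Because each sample is RNA of many cells, fewer dividing cells and less of these RNAs per cell cannot be told apart.

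The arrays could also be divided in a way that crosses the subsets. The division was read from 3 probe sets without a gene symbol, picked for a wide gap between the 2 arrays of every subset. The gap, with 1 array of each kind in each subset, thus follows from that choice. The mean of the 3 probe sets was 4.33 to 4.47 on 3 arrays and 12.57 to 12.81 on the other 3. The first kind, called off arrays here, are replicate 1 of CD27+CD11b-, replicate 1 of CD27+CD11b+ and replicate 2 of CD27-CD11b+ cells, and the others are called on arrays. The labels name no such division, it was found in these data, and what sets it was not tested.

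The mitosis and G2/M genes differed strongly between the off and the on array in the CD27+ subsets. In both of these the off array is replicate 1 and the on array replicate 2. The division and the replicate number therefore cannot be told apart there. Their median value over the 39 genes was 8.31 and 6.59 on replicates 1 and 2 of CD27+CD11b- cells, 7.53 and 6.12 in CD27+CD11b+ cells, and 5.91 and 6.22 in CD27-CD11b+ cells. The off array was thus the higher one in both CD27+ subsets, and the on array of each CD27+ subset lay nearer to the CD27-CD11b+ arrays than to its own replicate. The off array exceeded the on array for 38 of 39 genes in CD27+CD11b- cells, by a median of 1.29, and for 38 of 39 in CD27+CD11b+ cells, by 1.38. Of all genes 56.2% and 56% were higher on the off array there, with a median of 0.04 in both. In CD27-CD11b+ cells the off array was higher for 26 of 39 genes, by a median of 0.11. Of all genes 31.8% were higher on that off array, with a median of -0.11. The SD between the 2 arrays had a median over the genes of 0.91, 0.97 and 0.14 in the 3 subsets, against 0.12, 0.14 and 0.13 for all genes. It exceeded 0.5 for 33, 30 and 2 of the 39 genes, against 3.61%, 4.12% and 3.02% of all genes.

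**Figure D2:**
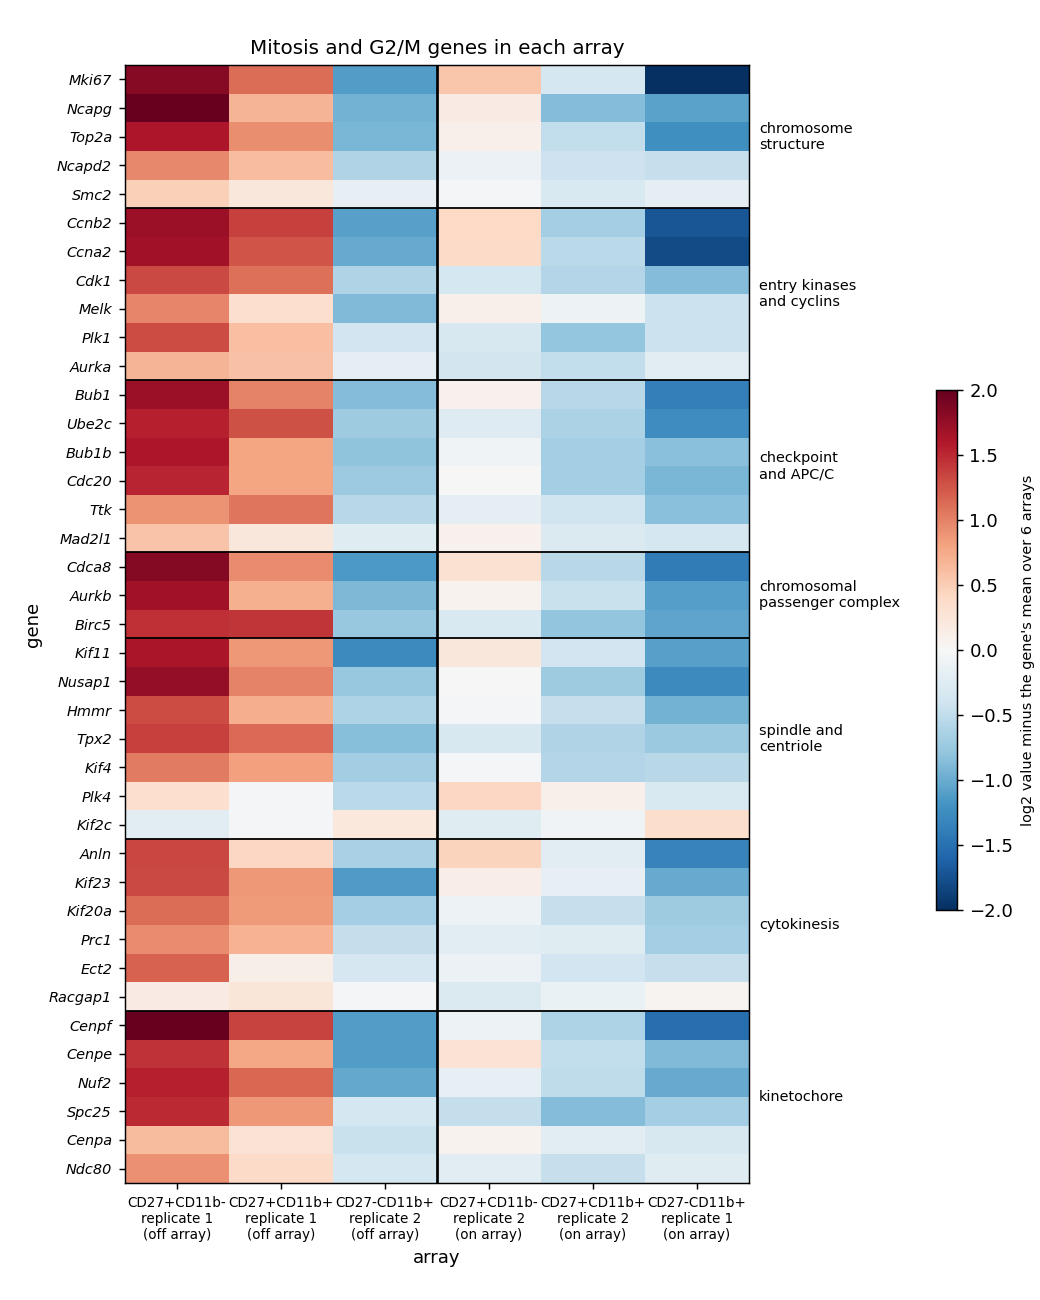
Log2 value of each of the 39 genes on each of the 6 arrays relative to the gene's mean over the arrays, with genes grouped by role and colours clipped at 2 above and below that mean. CD27+CD11b- replicate 1 held the highest value for 35 of the 39 genes, and CD27-CD11b+ replicate 1 the lowest for 22.

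Markers of other cells also differed between the arrays, and their part in the results was not tested. The mean of 11 measured monocyte and macrophage markers was 6.46 and 7.87 in CD27+CD11b-, 7.42 and 8.21 in CD27+CD11b+ and 8.10 and 7.09 in CD27-CD11b+ cells, with 4, 10, 8, 10, 10 and 5 of the 11 above the background level on the 6 arrays. The 8 neutrophil markers followed the same division, at means of 6.03 to 7.54. Both lists were thus lower on the off array of every subset, opposite to the mitosis genes in the CD27+ subsets. The 7 erythroid markers went the same way as the mitosis genes in the CD27+ subsets, with means of 6.20 and 5.82, then 6.12 and 5.62, then 5.76 and 6.25 on the 6 arrays, so that the off array was higher by 0.38, 0.51 and 0.48 in the 3 subsets. Of these 7, 3 were above background on every off array, 1 on the on arrays of the CD27+ subsets and 3 on the on array of CD27-CD11b+ cells. Gata1 and Klf1 were below it on every array. Tfrc, the transferrin receptor that dividing cells also carry, was called lower in the outer comparison (difference -0.78, limma adjusted p 0.0445). The 7 T cell markers had means of 6.99 and 6.77, then 6.70 and 6.35, then 5.84 and 5.93 on the 6 arrays, with 2 of them, Cd3d and Cd28, called lower in the outer comparison and Cd3e near background. Ccr2, a chemokine receptor on the monocyte list, was called lower in the second and outer comparisons. Dendritic cell and megakaryocyte lists had means of 6.61 to 6.89 and 5.303 to 5.87. None of 6 B cell markers was above background on any array, and all 10 NK cell markers were above it on every array, with list means of 11.55 to 12.39. Of the NK cell markers Fcer1g, Prf1 and Tbx21 were called higher in the outer comparison. Over all genes, 1.15% were called lower and 2.24% higher in the outer comparison, and 0.126% lower in the second.

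The sort was visible in its own markers. Cd27 read 8.78 and 8.03 in CD27+CD11b-, 8.92 and 8.21 in CD27+CD11b+, and 6.96 and 6.47 in CD27-CD11b+ cells, and Itgam, which encodes CD11b, read 6.37 and 5.88, then 8.69 and 8.01, then 9.93 and 9.44. For CD27-CD11b+ replicate 1 the sort description gives the gate of the CD27+CD11b- subset, while the title gives CD27-CD11b+. It was grouped by its title, and its Cd27 and Itgam values lay beside those of replicate 2. Array medians over all probe sets lay between 5.27 and 5.36, and the background level was 6.60, the 95th percentile of 43 measured genes of other tissues. In at least 1 subset mean, 27 of the 39 genes were above background, and 13 were above it in all 3. The 12 genes above it in no subset mean were Anln, Aurkb, Bub1, Ect2, Hmmr, Kif20a, Kif2c, Kif4, Nuf2, Tpx2, Ttk and Ube2c.

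Among genes of chromosome structure, Mki67 gave the largest difference of all 39 genes. It encodes the Ki-67 protein, which coats mitotic chromosomes and is the usual histological marker of dividing cells. Its values were 11.47 and 10.22 in CD27+CD11b-, 10.77 and 9.30 in CD27+CD11b+, and 7.64 and 8.54 in CD27-CD11b+. Both CD27-CD11b+ arrays lay below all 4 arrays of the CD27+ subsets. Mki67 fell by 2.76 (SE 0.55) from CD27+CD11b- to CD27-CD11b+ cells, 6.75-fold, at a limma adjusted p of 0.0397. Its 1 probe set was above background on every array. Without CD27+CD11b- replicate 1 the adjusted p was 0.135, and without CD27-CD11b+ replicate 1 or 2 it was 0.273 or 0.092.

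Top2a encodes topoisomerase II alpha, which untangles sister chromatids. It read 10.18 and 8.66 in CD27+CD11b-, 9.50 and 8.06 in CD27+CD11b+, and 7.33 and 7.64 in CD27-CD11b+, so the CD27-CD11b+ arrays were the lowest, and of the CD27+CD11b+ arrays 1 lay within and 1 below the range of CD27+CD11b-. The outer difference was -1.93 (SE 0.55), at a limma adjusted p of 0.107, or 0.00553 with the division as a block, a setting added after the data were seen. Blocked values are adjusted over the 18193 genes; in the same blocked fit over all 45037 probe sets, only Anln, Ccna2, Ccnb2 and Mki67 of the 39 genes passed in the outer comparison on the probe sets used, and none in the second. Ncapg, a subunit of condensin I, read, in the same order of subsets, 8.31 and 6.40, then 6.92 and 5.37, then 5.18 and 5.296. It had the largest first-step difference of the 39, -1.21, with an outer difference of -2.12 (adjusted p 0.123, blocked 0.0110). Smc2, the core ATPase of both condensins, read 9.52 and 8.999, then 9.26 and 8.74, then 8.86 and 8.88, with overlap between the CD27+ subsets and both CD27-CD11b+ arrays below both CD27+CD11b- arrays. Its outer difference was -0.39 (SE 0.23, adjusted p 0.412). Ncapd2, another condensin I subunit gene, differed by -0.95 (adjusted p 0.256).

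Of the kinases and cyclins of mitotic entry, the 2 measured cyclins showed the largest differences. Ccna2, which encodes cyclin A2 of S phase and G2, read 8.92 and 7.63 in CD27+CD11b-, 8.51 and 6.71 in CD27+CD11b+, and 5.46 and 6.24 in CD27-CD11b+. Ccnb2, a B-type cyclin, read 8.89 and 7.57, then 8.54 and 6.50, then 5.47 and 6.10 in the same order. For both, the CD27-CD11b+ arrays lay below all others, and the on array of CD27+CD11b+ was the lowest of the CD27+ arrays. Outer differences were -2.43 for Ccna2 (SE 0.61, limma adjusted p 0.0760) and -2.44 for Ccnb2 (SE 0.64, adjusted p 0.0895). With the division as a block the adjusted p was 6.95e-04 and 0.00221.

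Cdk1, the catalytic partner of these cyclins, read 8.70 and 7.03 in CD27+CD11b-, 8.48 and 6.80 in CD27+CD11b+, and 6.52 and 6.79 in CD27-CD11b+. Its on arrays in the CD27+ subsets, at 7.03 and 6.80, lay close to the CD27-CD11b+ arrays, and its outer difference of -1.21 (SE 0.62) was called neither without the block (adjusted p 0.339) nor with it (0.0552). Melk, an embryonic kinase abundant in dividing cells, read 7.05 and 6.17, then 6.41 and 5.96, then 5.64 and 5.19. Its CD27-CD11b+ arrays were the lowest, and its difference was -1.19 (adjusted p 0.0817, blocked 0.0351). Plk1, the main Polo kinase of mitosis, differed by -0.90, and Aurka, the centrosomal Aurora kinase, by -0.36. Neither passed in either fit, and the Aurka arrays of the outer subsets overlapped.

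Kinetochore genes split into large and small differences. Cenpf, a large protein of the outer kinetochore corona, read 8.91 and 6.82 in CD27+CD11b-, 8.28 and 6.31 in CD27+CD11b+, and 5.42 and 5.80 in CD27-CD11b+. Nuf2, a subunit of the NDC80 complex that grips microtubules, read 7.001 and 5.28, then 6.59 and 4.93, then 4.44 and 4.41, and Cenpe, a kinetochore motor, read 7.74 and 6.59, then 7.07 and 5.80, then 5.41 and 5.18. The CD27-CD11b+ arrays of all 3 genes lay below the 4 CD27+ arrays. Outer differences were -2.25, -1.71 and -1.87, with limma adjusted p of 0.154, 0.186 and 0.0706, and with the block 0.00902, 0.0290 and 0.0115. Nuf2 was not above background in any subset mean.

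Cenpa, the histone H3 variant that marks centromeres, read 9.34 and 8.79 in CD27+CD11b-, 8.998 and 8.497 in CD27+CD11b+, and 8.39 and 8.27 in CD27-CD11b+. Its CD27-CD11b+ arrays were again below all others, but the difference was -0.74 (SE 0.23, adjusted p 0.143, blocked 0.0525). Spc25, another NDC80 complex subunit, read 8.48 and 6.50, then 7.85 and 6.12, then 6.30 and 6.63, with overlap between the on array of CD27+CD11b- and replicate 2 of CD27-CD11b+, and differed by -1.02. Ndc80 itself differed by -0.64. None of these 3 passed in either fit.

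All 6 genes of the spindle checkpoint and anaphase promoting complex had arrays of CD27-CD11b+ below both arrays of CD27+CD11b-, although none passed the unblocked test. Cdc20, the activator of the anaphase promoting complex, read 10.23 and 8.72 in CD27+CD11b-, 9.49 and 8.03 in CD27+CD11b+, and 7.80 and 7.99 in CD27-CD11b+. Bub1 and Bub1b, checkpoint kinase and kinase-like protein, read 7.25 and 5.63, then 6.54 and 4.998, then 4.17 and 4.67 for Bub1 and 8.36 and 6.67, then 7.53 and 6.07, then 5.91 and 5.94 for Bub1b. In all 3 the on array of CD27+CD11b+ was nearer to the CD27-CD11b+ arrays than to its replicate. Outer differences were -1.58, -2.02 and -1.59, with limma adjusted p of 0.171, 0.116 and 0.189, and with the block 0.0159, 0.00368 and 0.0278.

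Ube2c, the ubiquitin-conjugating enzyme of the complex, read 7.49 and 5.67 in CD27+CD11b-, 7.21 and 5.302 in CD27+CD11b+, and 4.68 and 5.23 in CD27-CD11b+. Ttk, the checkpoint kinase also called Mps1, read 6.04 and 4.96, then 6.21 and 4.73, then 4.30 and 4.58, and Mad2l1, the Mad2 checkpoint protein, read 9.53 and 9.05, then 9.20 and 8.68, then 8.62 and 8.72. Mad2l1 was well above background on every array and varied least of the 6. Their outer differences were -1.63, -1.06 and -0.62. Ube2c and Ttk passed with the block (adjusted p 0.0152 and 0.0412) and Mad2l1 did not (0.0532). Bub1, Ttk and Ube2c were not above background in any subset mean.

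The chromosomal passenger complex corrects faulty attachments and later directs cytokinesis. Cdca8, which encodes its subunit borealin, read 10.22 and 8.69 in CD27+CD11b-, 9.33 and 7.84 in CD27+CD11b+, and 6.99 and 7.24 in CD27-CD11b+. Birc5, which encodes survivin, read 8.44 and 6.67, then 8.41 and 6.19, then 5.91 and 6.22, and Aurkb, its kinase, read 6.84 and 5.23, then 5.88 and 4.72, then 4.06 and 4.26. In all 3 the CD27-CD11b+ arrays were below both CD27+CD11b- arrays, and for Birc5 the on array of CD27+CD11b+, at 6.19, lay within the CD27-CD11b+ range. Outer differences were -2.34, -1.49 and -1.87 (limma adjusted p 0.0679, 0.320 and 0.102, and with the block 0.00324, 0.0485 and 0.00788).

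Among spindle and centriole genes, Plk4, the kinase that starts centriole duplication, fell in the outer comparison by a small and even amount. It read 8.68 and 8.77 in CD27+CD11b-, 8.33 and 8.46 in CD27+CD11b+, and 8.05 and 7.81 in CD27-CD11b+. The 3 pairs of arrays did not overlap, and Plk4 did not share the gap between off and on arrays. The difference was -0.80 (SE 0.16, limma adjusted p 0.0367). On the 2 other Plk4 probe sets above background it was -0.28 on each, with no call. Without CD27+CD11b- replicate 1 or 2 the adjusted p was 0.127 or 0.146, and without CD27-CD11b+ replicate 1 or 2 it was 0.133 or 0.134.

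Kif11, the motor that pushes spindle poles apart, read 7.95 and 6.54 in CD27+CD11b-, 7.19 and 5.93 in CD27+CD11b+, and 5.23 and 5.05 in CD27-CD11b+. Nusap1, a microtubule bundling protein, read 9.02 and 7.27, then 8.25 and 6.56, then 5.998 and 6.51, and Hmmr, a spindle-associated hyaluronan receptor, read 7.27 and 5.93, then 6.68 and 5.50, then 5.02 and 5.34. For all 3 the CD27-CD11b+ arrays lay below the 4 CD27+ arrays. Outer differences of -2.11, -1.89 and -1.42 had limma adjusted p of 0.0639, 0.163 and 0.159, and with the block 0.00898, 0.00688 and 0.0103. Tpx2, the activator of Aurora A on the spindle, differed by -1.33 and Kif4, a chromosome-bound motor, by -1.14, and both missed the threshold in both fits. Kif2c, a microtubule depolymerising motor, differed by 0.51 on the probe set used, with values of 5.16 and 5.14, then 5.35 and 5.31, then 5.74 and 5.59 below the background level. Another Kif2c probe set read 7.08 and 5.03, then 5.71 and 4.71, then 4.23 and 4.31, a difference of -1.79. The remaining Kif2c probe sets differed by -0.47 and -0.16, so only the probe set used was higher in CD27-CD11b+ cells. The subset means of all Kif2c probe sets lay below background.

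Cytokinesis genes included the third called gene. Anln encodes anillin, the scaffold of the contractile ring, and read 6.80 and 5.90 in CD27+CD11b-, 5.88 and 5.25 in CD27+CD11b+, and 4.12 and 4.81 in CD27-CD11b+. The 3 pairs of arrays did not overlap. Anln fell by 1.89 (SE 0.35, limma adjusted p 0.0323), but all 3 subset means, 6.35, 5.56 and 4.46, lay below the background level. Another Anln probe set, also below it with means of 3.97, 4.12 and 4.26, differed by 0.29. With the mean of its probe sets Anln differed by -0.80 (limma adjusted p 0.0911). Without CD27+CD11b- replicate 1 its adjusted p was 0.104, and without CD27-CD11b+ replicate 1 or 2 it was 0.229 or 0.069.

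Kif23, a motor of the central spindle, read 9.60 and 8.42 in CD27+CD11b-, 9.15 and 8.12 in CD27+CD11b+, and 7.27 and 7.15 in CD27-CD11b+. Kif20a, a motor that brings the passenger complex to the midzone, read 6.23 and 5.01, then 5.97 and 4.66, then 4.40 and 4.44, and Prc1, the bundler of midzone microtubules, read 8.67 and 7.495, then 8.42 and 7.49, then 7.04 and 7.24. The CD27-CD11b+ arrays lay below the other 4 in each. Outer differences were -1.80, -1.20 and -0.94 (limma adjusted p 0.0620, 0.220 and 0.260, with the block 0.00878, 0.0390 and 0.0403). Ect2, the exchange factor that activates RhoA at the cell equator, differed by -0.93 (blocked adjusted p 0.0601). Racgap1, its partner in the centralspindlin complex with Kif23, read 8.39 and 7.94, then 8.47 and 8.09, then 8.27 and 8.18, nearly level across the subsets, with a difference of 0.06 (SE 0.20, adjusted p 0.9002). A second Racgap1 probe set gave 0.49.

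**Figure D3:**
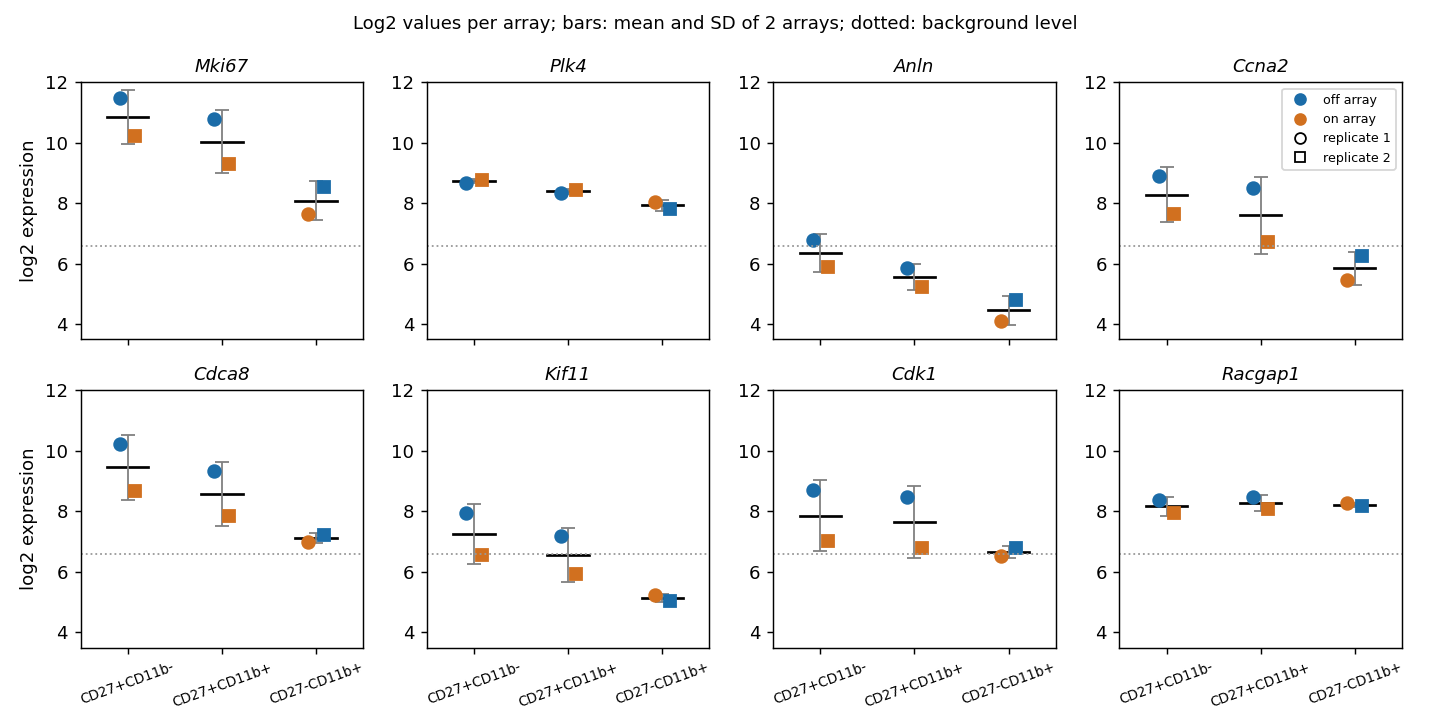
Log2 values of Mki67, Plk4, Anln, Ccna2, Cdca8, Kif11, Cdk1 and Racgap1 on each array, with the mean and SD of the 2 arrays of a subset and the background level of 6.60 as a dotted line. The 5 genes besides the called Mki67, Plk4 and Anln were picked after their values were seen, Racgap1 as the most level one. The gap between off and on arrays is wide in the CD27+ subsets for Ccna2, Cdca8, Kif11 and Cdk1 and absent for Plk4.

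The first step, from CD27+CD11b- to CD27+CD11b+ cells, gave differences that were small and uneven in size. The median over the 39 genes was -0.42, 37 were negative against 51.9% of all genes, and values ran from -1.21 for Ncapg to 0.18 for Kif2c. None was called by limma, with or without the block, and none had an unadjusted p under 0.05. Of all genes 0.0879% were called lower and 0.033% higher without the block, 0.258% and 0.0605% with it, and 1.96% and 1.84% at the unadjusted p. For 15 genes the difference was under 1 SE. Arrays did not overlap for Plk4 and Anln, which were lower, and Kif2c, higher, against 15.6% and 14.7% of all genes. Without CD27+CD11b- replicate 1 the median was 0.14, and without CD27+CD11b+ replicate 2 it was 0.11, with 26 and 25 genes changing sign. Leaving out either of these arrays sets 1 kind of array in that subset against both kinds in the other. Within the off arrays alone the median was -0.45, with 36 genes negative, and within the on arrays -0.38, with 37 negative.

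The second step, from CD27+CD11b+ to CD27-CD11b+ cells, had a median of -0.91 with 38 of 39 genes negative, against 46.9% of all genes. Values ran from -1.95 for Mki67 to 0.33 for Kif2c, and 18 genes were at least 2-fold lower. None was called by limma, against 0.126% of all genes called lower and 0.17% higher, while 11 were lower and 1 higher at an unadjusted p under 0.05, against 3.44% and 7.7% of all. With the division as a block Anln, Bub1, Ccna2, Ccnb2 and Mki67 were called lower, against 0.731% of all genes called lower and 0.896% higher, and none of them over all probe sets. For 28 genes both CD27-CD11b+ arrays were below both CD27+CD11b+ arrays, against 17.1% of all genes, and only Kif2c was higher without overlap, against 22.8%. The median was -1.59 within the off arrays and -0.32 within the on arrays. Without CD27+CD11b+ replicate 1 it was -0.29, and without replicate 2 it was -1.60.

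The outer comparison gave 37 of 39 negative differences, against 50.8% of all genes, and 28 lower and 1 higher at an unadjusted p under 0.05, against 6.39% and 12.5%. For 35 genes both CD27-CD11b+ arrays lay below both CD27+CD11b- arrays, against 24.3% of all genes. Aurka, Spc25 and Racgap1 overlapped, and Kif2c was higher without overlap, against 26.9% of all genes. The count of 3 called genes became 0 when replicate 1 of CD27+CD11b- or any array of CD27-CD11b+ was left out, 13 without replicate 2 of CD27+CD11b-, and 9 without an array of CD27+CD11b+. None was called higher, against 2.24% of all genes. With the division as a block the count was 25, against 2.83% of all genes called lower and 5.3% higher, and it was 4 with that block over all probe sets. That block takes 1 gap between off and on arrays for all subsets, while the measured gaps were 1.29, 1.38 and 0.11. The median of -1.42 was -1.99 within the off arrays and -0.76 within the on arrays, and 39 of 39 genes had the lower difference within the off arrays. Without CD27+CD11b- replicate 1 it was -0.75 and without replicate 2 it was -2.17.

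**Figure D4:**
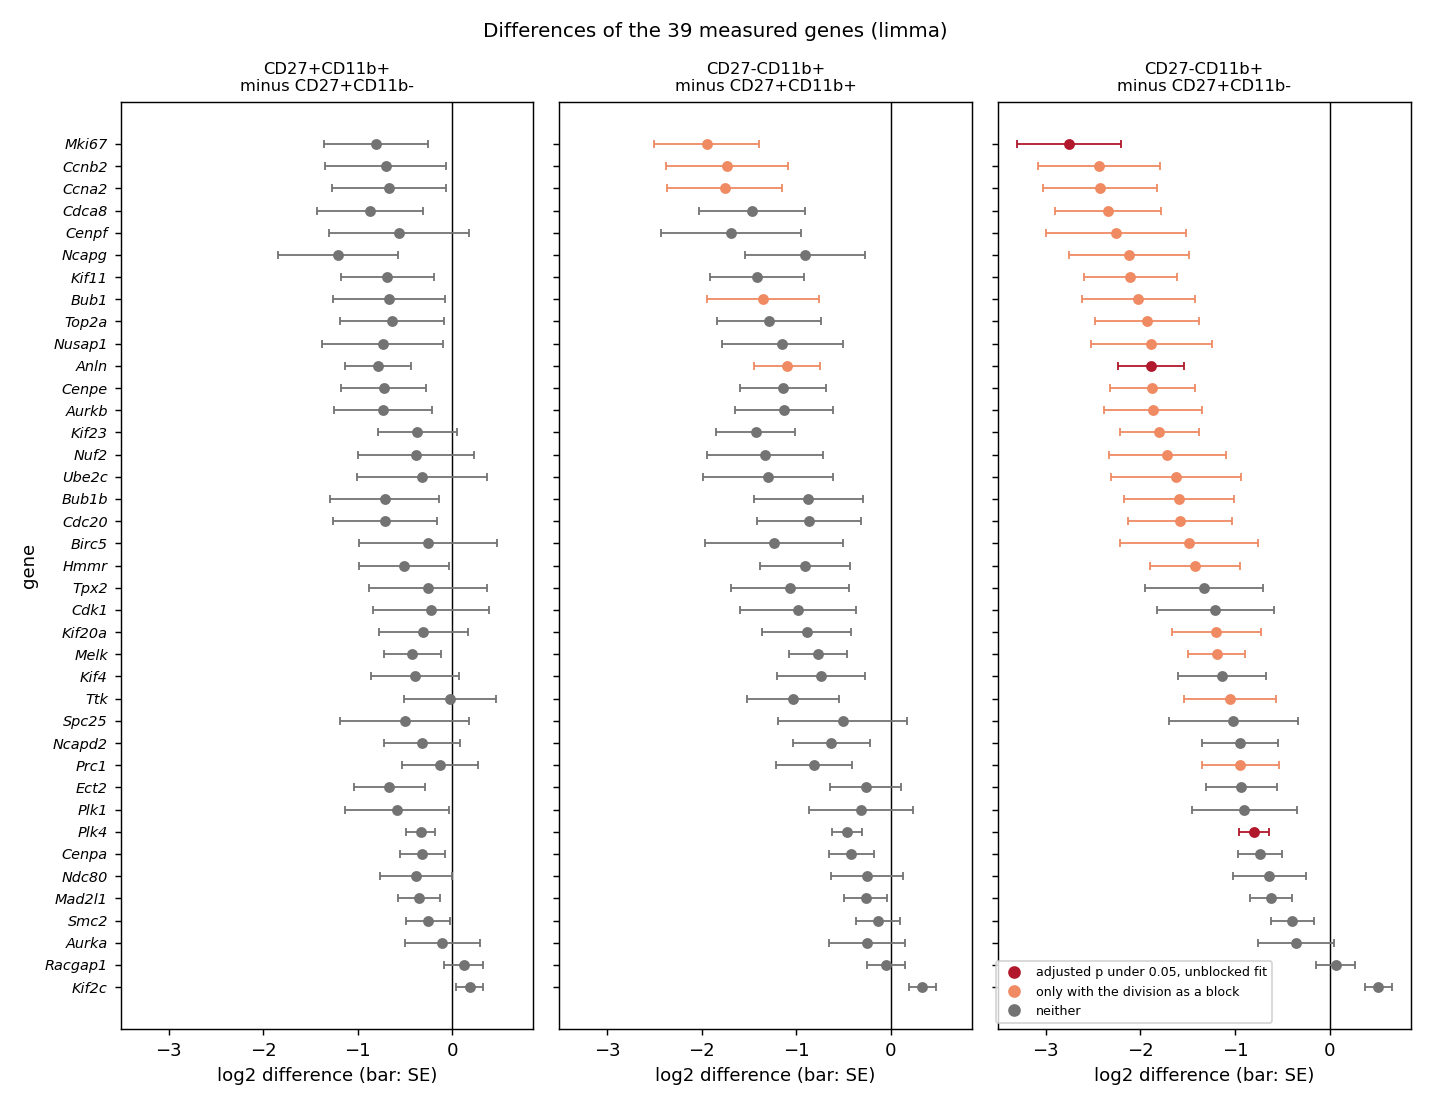
Log2 difference of each of the 39 genes in the 3 comparisons, with the SE of the limma fit as bars, coloured by whether the adjusted p was under 0.05 without the block, with it only, or in neither. In the outer comparison 3 genes pass without the block and 25 with it, and 37 of the 39 points lie below 0. The comparisons share arrays, so the panels are not independent.

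The role groups differed in the size of the outer difference. Medians were -1.93 for the 5 chromosome structure genes, -1.87 for the 3 passenger genes, -1.59 for the 6 checkpoint genes, -1.37 for the 6 kinetochore genes, -1.33 for the 7 spindle and centriole genes, -1.20 for the 6 entry kinases and cyclins and -1.07 for the 6 cytokinesis genes. Within the off arrays these medians ran from -2.58 for the passenger genes to -1.65 for the cytokinesis genes, and within the on arrays from -1.22 for the chromosome structure genes to -0.52 for the entry genes. No test compared the roles. The F test over the subsets called none of the 39 genes (limma, against 1.35% of all), with 18 at an unadjusted p under 0.05, against 13.6% of all, and 18 called with the block, against 4.8% of all. The test of the second step against the first called none, against 0.0055% of all genes without and 0.011% with the block, with none at an unadjusted p under 0.05, against 3.01% of all, and none with the block, so the larger median of the second step was not shown for any single gene.

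**Figure D5:**
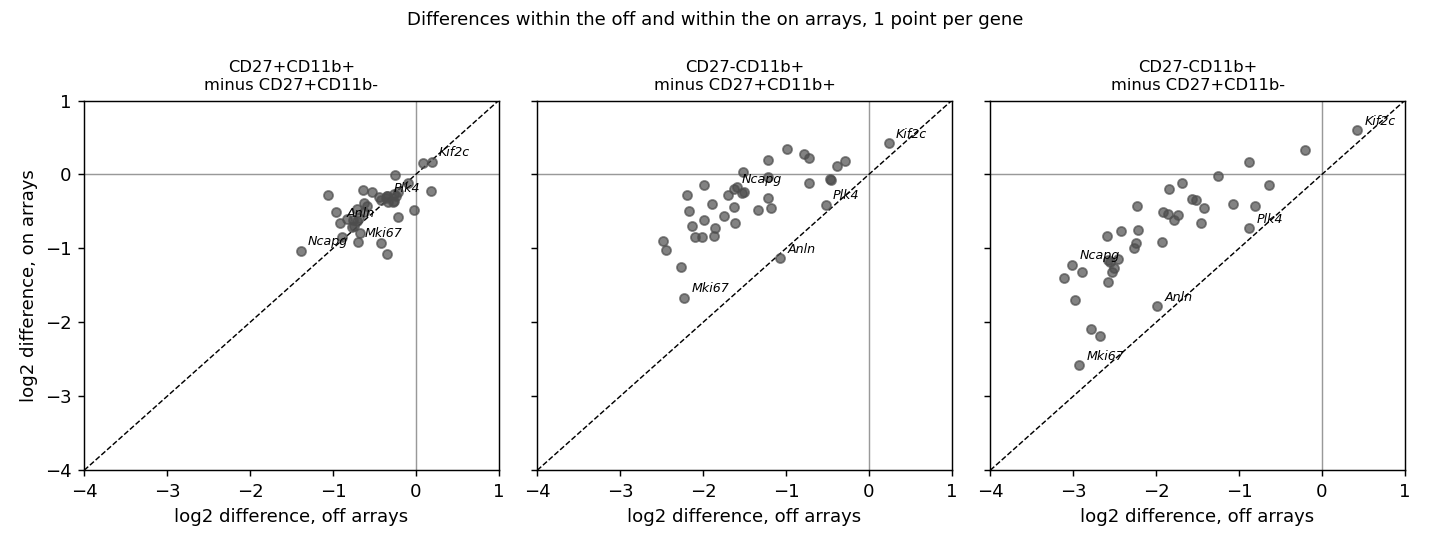
Log2 difference of each of the 39 genes within the on arrays against that within the off arrays, in the 3 comparisons, with the line of equal difference dashed. In the outer panel all 39 points lie above that line, with medians of -1.99 within the off arrays and -0.76 within the on arrays. Each point rests on 1 array of each subset compared.

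The 39 genes followed a common pattern over the arrays, which share the subset and the division. As a description over 6 arrays, the median Pearson r over 741 pairs of genes was 0.94, and 69.8% of pairs were above 0.9. Kif2c had the lowest r with the mean of the other genes, -0.71, followed by Racgap1 at 0.54 and Plk4 at 0.62. The median outer difference was -1.21 for the 27 genes with TTTGAA in the promoter and -1.60 for the 8 without it, with no test made. Of the 12 other probe sets above background, on 10 of the genes, none had the opposite sign in the first or the outer comparison, and those of Racgap1, Plk4 and Smc2 had it in the second.

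Other cell cycle lists had smaller median differences. Of 47 further mitotic genes 40 were lower in CD27-CD11b+ than in CD27+CD11b- cells, with a median of -0.90 and a range from -2.49 for Cdca5, the cohesion factor sororin, to 0.41 for Pttg1, the separase inhibitor securin. Knl1, a kinetochore scaffold, fell by 0.96 (limma adjusted p 0.0441), the only call without the block, against 1.15% of all genes called lower. Another fit, with the block, called 24 lower, against 2.83% of all genes. Of 40 DNA replication genes 33 were negative, against 50.8% of all genes, with a median of -0.31. Limma called 3 of them lower, against 1.15% of all genes. Cdc6, which loads the replicative helicase, fell by 2.13 (adjusted p 0.0345). Ccne2, which encodes cyclin E2, fell by 1.61 (adjusted p 0.0162), and Mcm10, a replication initiation factor, fell by 1.38 (adjusted p 0.0297). With the block 9 replication genes were called lower and 1 higher, against 2.83% and 5.3% of all genes. Ccne2 was below the background level on every array.

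The 16 regulators of G2 and M transcription and timing showed no shared direction. Their median outer difference was -0.01, with 8 negative and 8 positive, and none was called by limma, with or without the block. At an unadjusted p under 0.05, 1 was lower and 2 higher, near the shares of 6.39% and 12.5% over all genes. Foxm1, a transcription factor of G2 genes, had subset means of 6.75, 6.80 and 6.64, and Mybl2, the B-Myb subunit of the MMB complex, had means of 5.07, 4.73 and 4.51, below background. The extremes were Cdc25c, a phosphatase that activates Cdk1, at -0.90, and Lin37, a DREAM subunit, at 0.71.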

How the data were processed

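Total RNA of 6 sorted spleen NK cell samples was measured on 1 array each, 2 per subset. The deposited log2 expression values come from RMA as run by the authors, as the submitters' processing notes name it. Its version is not given in the sources used here. Because RMA brings all arrays to 1 distribution and shrinks contrasts at low signal, shifts common to nearly every gene are lost and dim genes look less different than they are.

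Of 45101 probe sets, 64 controls were left out, 34945 of the rest had 1 symbol, 932 had several and 9160 had none. Each of 18193 genes was read from its probe set with the highest mean. The number of arrays limits the precision. Samples were grouped by title. The fit was limma 3.58.1 (R 4.3.3) with 1 mean per subset, 3 residual and 4.93 prior degrees of freedom, and Benjamini-Hochberg adjustment over all genes, with calls at an adjusted p under 0.05. The script was tested on simulated data.

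Values on every array are given for genes called in any comparison, with or without the division block, and for the 2 brightest of each role. Genes of other cell cycle lists are named when called without that block or as extremes, and markers of cell types when called or to describe the arrays. Foxm1 and Mybl2 are named outside this rule, as neither was called or an extreme. The members and gene lists were chosen with earlier results of these data known. Alternatives changed the probe set choice, normalization, dim gene filter, added constant, variance prior, arrays and blocks. Replicate numbers were not taken as pairs, since deviations from subset means under the same number correlated at 0.62, -0.14 and -0.25. The on and off division equals a crossed pairing and was added after the data were seen.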

Additional observations from a re-analysis of the deposited data

How the results depend on the processing

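The median difference of the 39 genes stayed negative in the second and outer comparisons under all alternatives, from -1.60 to -0.29 and from -2.17 to -0.75 with 1 array left out. In the first comparison it ran from -1.23 to 0.14, and was above 0 without replicate 1 of CD27+CD11b- or replicate 2 of CD27+CD11b+, where 26 and 25 genes changed sign. In the second comparison 6 genes changed sign without replicate 1 of CD27+CD11b+.

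The 3 mitosis and G2/M genes called in the outer comparison became 1 with 32 added to linear values, 2 with quantile normalization repeated (Mki67 at an adjusted p of 0.0541), 2 with arrays centred on their median (Plk4 at 0.0513), 0 over all probe sets, 0 with the mean of probe sets, 0 with the most variable probe set, 6 among the 27 above background, 6 with an intensity trend, 9 with only the 2 subsets, and 0 to 13 with 1 array left out. The replicate block gave 8 and changed no other count of member calls. The division block gave 25 there, 5 in the second comparison and 18 in the F test, and over all probe sets it gave 4, 0 and 2. A repeated quantile normalization gave 1 in the F test, and leaving out 1 array gave 0 to 1.

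Over all genes the first comparison had 22 calls, the second 54 and the outer 617. In that order they were 0, 11 and 367 with 32 added, 0, 18 and 288 over all probe sets, 8, 24 and 398 with the most variable probe set, 58, 296 and 1480 with the division block, and 0, 5 and 430 with that block over all probe sets. In the first they were also 11 with the mean of probe sets and 12 with only the 2 subsets. In the outer they were 635 with only the 2 subsets. The outer total was also above 617 with the replicate block and among the 8362 genes above background. With an intensity trend it was below 617, although more mitosis and G2/M genes were called. Leaving out 1 array gave 4 to 30, 6 to 53 and 84 to 635. A fit over all probe sets tested more features and also changed the estimate of the spread. Without the block, the SE of the outer Mki67 difference was 0.55 over genes and 0.61 over all probe sets. What caused the changes in calls was not tested. With 2 arrays a subset and 12 genes at background in every subset, a difference that missed the threshold is not shown to be absent.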

Other observations

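Genes of G1 and of quiescence went both ways, with more of them higher than lower in CD27-CD11b+ cells. Of 22 measured, 14 were higher in CD27-CD11b+ than in CD27+CD11b- cells, against 49.2% of all genes and 68.2% of those above background, which 19 of the 22 were. The median difference was 0.23, against 0.17 for genes above background. At an unadjusted limma p under 0.05, 8 were higher and 1 lower, against 12.5% and 6.39% of all genes. Arrays did not overlap for 12 that were higher and 5 that were lower, against 26.9% and 24.3% of all genes. Limma called 2 higher and 1 lower after adjustment, against 2.24% and 1.15% of all genes. Klf2, a transcription factor tied to lymphocyte quiescence, rose by 1.52 (adjusted p 0.0448), with values of 10.94 and 11.69 in CD27+CD11b-, 11.74 and 12.35 in CD27+CD11b+, and 13.13 and 12.54 in CD27-CD11b+ cells. Ccnd3, which encodes the G1 cyclin D3, rose by 1.15 (adjusted p 0.0339). Cdk6, a kinase partner of D-type cyclins, fell by 1.61 (adjusted p 0.0044), with values of 10.21 and 10.01, then 9.71 and 9.92, then 8.33 and 8.67. Its second-step difference was -1.32 (adjusted p 0.0351).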
